A study of Mus musculus with 7 samples.

Results

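Transcripts of 10 genes known from melanoblasts and the neural crest were followed in forelimb buds of the mouse at embryonic day 11.5 (strain C57/Bl6). The genes were the pigment enzymes Dct, Tyr and Tyrp1, the melanosome proteins Mlana and Pmel, the transcription factors Mitf and Sox10, the receptors Kit and Ednrb, and the ligand Kitl. They were taken by gene name from the array's own annotation, with all their probes, which gave 14 probes for 10 of the 10 genes among 55681 probes in all. The tissues were the apical ectodermal ridge (AER), microdissected from the rim of the bud and hybridised to 3 arrays, and surface ectoderm of the posterior limb, hybridised to 4 arrays as the control. All embryos were untreated and of 1 strain, and each array carried RNA pooled from 2 to 3 mice, so errors below are between arrays of pooled RNA. The members were chosen by their processed signals and background calls on these same AER and ectoderm arrays, so their differences are given as a description. They stayed in the fit across all genes, and nothing is read from their calls there. In dissected tissue, fewer cells of a type and less RNA per cell cannot be told apart.

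Melanoblasts are the precursors of pigment cells. They leave the neural crest along the trunk, travel beneath and then into the skin, and depend on the receptor Kit with its ligand Kitl and on the endothelin receptor Ednrb. The transcription factors Sox10 and Mitf switch on the enzymes of pigment synthesis in them. Sox10 is also the hallmark of Schwann cell precursors, Kit is also found on mast cells and blood progenitors, and Kitl is made by skin epithelium, so no member marks a melanoblast by itself.

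The enzymes TYR, TYRP1 and DCT form 1 protein family, and their gene promoters are textbook targets of MITF. The promoter windows of these genes (RefSeq, GRCm38.p6, 250 bases before to 50 after the start) are shown because the tissues separated for Dct and overlapped for its relatives Tyr and Tyrp1. The signals of Tyr and Tyrp1 were near or below the limit of detection. Their overlap thus does not show that they lack a difference. Capitals mark the motif TCATGTG or its reverse complement CACATGA, the core of the M-box that MITF is known to bind.
Dct chr14:118052197-118052496, minus strand: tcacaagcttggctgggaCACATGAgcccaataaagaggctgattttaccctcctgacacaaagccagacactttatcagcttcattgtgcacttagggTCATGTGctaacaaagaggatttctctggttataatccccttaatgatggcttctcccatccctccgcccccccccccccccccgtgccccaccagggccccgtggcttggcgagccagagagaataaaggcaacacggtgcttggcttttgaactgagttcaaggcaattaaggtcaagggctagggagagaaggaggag
Tyr chr7:87493463-87493762, minus strand: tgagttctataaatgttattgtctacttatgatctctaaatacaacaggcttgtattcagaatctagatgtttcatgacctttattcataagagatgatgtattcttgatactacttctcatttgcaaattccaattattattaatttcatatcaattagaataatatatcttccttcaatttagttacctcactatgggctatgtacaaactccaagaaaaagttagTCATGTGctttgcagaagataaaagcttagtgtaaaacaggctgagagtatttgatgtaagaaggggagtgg
Tyrp1 chr4:80833963-80834262, plus strand: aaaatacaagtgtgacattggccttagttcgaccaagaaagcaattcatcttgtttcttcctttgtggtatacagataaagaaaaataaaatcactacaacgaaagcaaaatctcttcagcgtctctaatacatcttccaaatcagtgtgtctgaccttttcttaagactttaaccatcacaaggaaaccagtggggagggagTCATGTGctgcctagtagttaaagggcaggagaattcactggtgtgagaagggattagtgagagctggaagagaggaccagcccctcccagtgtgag
Relative to the start, the motif began at position -151 in Dct, with a copy on the other strand at -232. It began at -22 in Tyr and at -47 in Tyrp1. Searched on both strands, TCATGTG was found in these 3 of the 7 members with a promoter in the RefSeq table (Dct, Tyr, Tyrp1, Mitf, Kit, Kitl and Ednrb), against 3.77% of 32851 promoter windows of the same length. The shorter CATGTG, which lies within it, was found at the same places and in 14.2% of all windows. The palindrome CACGTG was found in 0 of the 7 members and in 7.15% of all windows. A match of letters is a description and not a binding site. The motif was searched because these 3 promoters are textbook targets of MITF, so finding it in them is not a test of enrichment.

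Dct, the dopachrome tautomerase of pigment synthesis and an early marker of migrating melanoblasts, was the member that separated the tissues. Its brighter probe (mm9, chromosome 14 from 118412029 to 118412088, minus strand) had a processed signal of 194.2, 492.1 and 210.7 units on AER replicates 1 to 3. On ectoderm replicates 1 to 4 the signal was 6.47, 6.39, 25.1 and 5.75. The scanner software called all 3 AER arrays well above background but, of the ectoderm arrays, ectoderm replicate 3 alone, and on the other ectoderm arrays the software had put a surrogate value in place of a signal too dim to measure. Scaled to each array's 75th percentile, the AER mean was -0.63 ± 0.38 (log2 level, SD, n = 3), and the ectoderm mean was -5.34 ± 1.33 (SD, n = 4). The difference was 4.71, or 26.1-fold, with 1 of 4 ectoderm arrays measured. With the dim arrays set to the dimmest signal called above background on each, it was 10.1-fold. The lowest AER array stood above the highest ectoderm array, as it did for 12.6% of the 20826 genes tested. The difference was 2.11 after the normexp background correction, whose offset of 50 shrinks dim genes by construction. Within slide row 1, with AER replicate 1 alone against ectoderm replicates 1 to 3, it was 4.34. Within slide row 2 it was 5.36, with AER replicates 2 and 3 against ectoderm replicate 4 alone, a surrogate value. Neither row has replicates in both tissues.

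The other Dct probe, which shares 44 of its 60 bases with the first, gave the same order of groups. Its signal was 69.6, 197.1 and 80.7 units on the AER arrays and 4.95 to 6.58 units on the ectoderm arrays, none of which was above background. Against the dimmest signals called above background, this probe was at least 4.11-fold higher in AER. The probes overlap, so they are not independent readings of the transcript.

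Tyr, the rate-limiting enzyme of pigment synthesis, was near or below the limit of detection in both tissues. The probe on chromosome 7 from 94632414 to 94632473 had signals of 42.2, 54.2 and 25.0 units on the AER arrays, of which the last 2 were well above background. It read 20.1, 24.4, 8.73 and 23.2 units on ectoderm replicates 1 to 4, none of them above background. On the scaled log2 values the groups overlapped, with an AER mean of -3.46 ± 0.49 (SD, n = 3) and an ectoderm mean of -4.33 ± 0.41 (SD, n = 4). The other Tyr probe, printed 10 times on each array, was at background on all 7 arrays. Tyrp1, the related enzyme of brown and black pigment, was well above background on 0 of 7 arrays, with signals of 4.92 to 14.3 units. Neither gene passed the filter on dim probes, so 8 of the 10 members remained in the fit across all genes.

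The genes whose profile over the 7 arrays was most like that of Dct were Evx1, Tulp2, Dlx1, Gja3 and Msx1. Likeness was the root mean square difference between profiles, each centred on its own mean, over 13469 genes with a RefSeq symbol, and it was 0.33, 0.49, 0.51, 0.52 and 0.53 (log2) for these genes against a median of 2.55 over all. Evx1, Dlx1 and Msx1 are homeobox genes known from limb outgrowth. Gja3 encodes a connexin of gap junctions. The 6 profiles share the arrays and the dissection, 3 of the 7 Dct values are surrogates, and all 6 were high on the AER arrays. Dct was highest among the ectoderm arrays on replicate 3, so genes chosen by likeness to it would be high there by the choice. Evx1 stood there at 1.02, against -2.25 to -1.63 on the other ectoderm arrays. Fgf8, the growth factor of the ridge, gave 1176 units on ectoderm replicate 3 and 81.7 to 166.1 units on the other ectoderm arrays, against 19550 to 48490 units on the AER arrays. The mean log2 level of 16 AER marker genes was -0.37 on ectoderm replicate 3 and -1.67 to -1.28 on the other ectoderm arrays. Its part in the Dct signal of that array was not tested, and without ectoderm replicate 3 the Dct difference was 5.37.

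**Figure D1:**
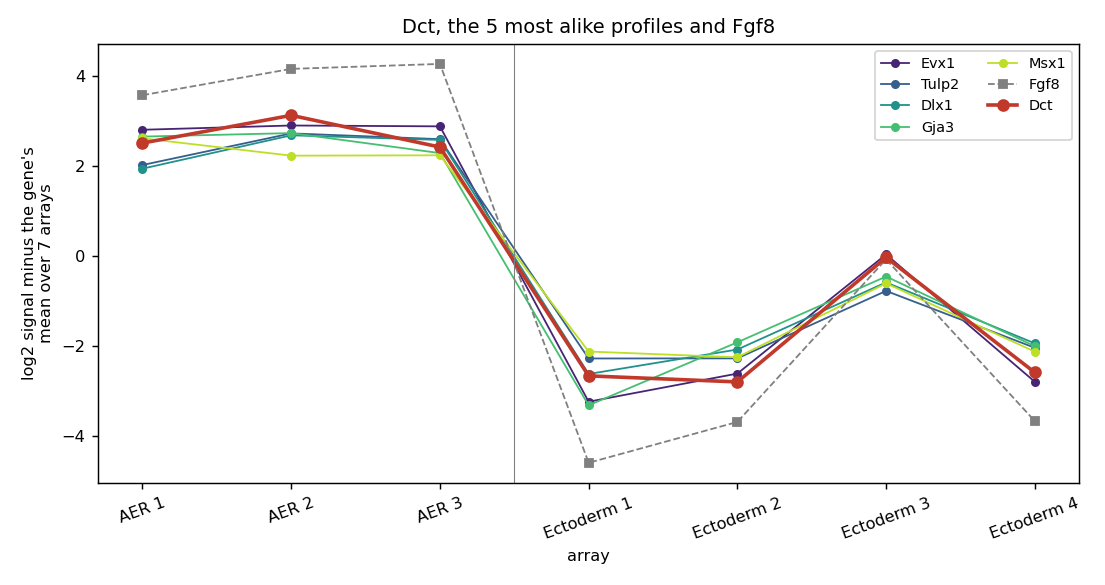
Log2 signal minus each gene's mean over the 7 arrays, for Dct (thick red), the 5 genes with the most similar profile (thin lines) and Fgf8 (grey, dashed), with AER arrays left and ectoderm arrays right of the vertical line. All 7 genes are high on the 3 AER arrays, and ectoderm replicate 3 is the highest ectoderm array for each. For the 5 similar genes the choice by likeness to Dct favours both features.

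The genes of the melanosome proteins were dim and did not share the pattern of Dct. Mlana, a small membrane protein of early melanosomes, had signals of 38.3, 48.9 and 37.8 units on the AER arrays and 107.5, 103.6, 22.1 and 28.9 units on ectoderm replicates 1 to 4. Ectoderm replicates 1 and 2 were high and replicates 3 and 4 low, so the groups overlapped. The AER mean was -3.35 ± 0.19 (log2 level, SD, n = 3), and the ectoderm mean was -2.79 ± 0.89 (SD, n = 4). Pmel, which builds the fibrils of the melanosome, had signals of 34.4, 54.5 and 57.3 units in AER and 25.3, 31.0, 27.4 and 31.9 units in ectoderm. Its log2 levels of -3.15 ± 0.32 (SD, n = 3) and -3.63 ± 0.36 (SD, n = 4) overlapped. Pmel was well above background on 3 of 3 AER and 3 of 4 ectoderm arrays. Its probe ends lie at 128156029 and 128156986 on chromosome 10 (mm9), a stretch longer than the probe.

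Mitf, the regulator of the pigment cell program, was above background on all 7 arrays. The brighter of its probes (chromosome 6 from 97971229 to 97971288) gave 205.9, 405.3 and 284.2 units in AER and 157.6, 274.0, 119.0 and 185.3 units in ectoderm. The log2 levels were -0.56 ± 0.15 (SD, n = 3) and -1.02 ± 0.29 (SD, n = 4), a difference of 0.46, and ectoderm replicate 2 lay within the AER range. The difference was -1.16 when arrays were centred on pan-epithelial markers. The other Mitf probe, from 97968501 to 97968560, gave a difference of 0.38, with -0.00062 within slide row 1 and 0.84 within slide row 2. Row 1 held a single AER array and row 2 a single ectoderm array. Mitf has several promoters, used in different cell types, and which of its forms the probes read was not looked up.

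Sox10, the crest factor of melanoblasts and Schwann cell precursors, varied widely among the ectoderm arrays. Its signal was 43.9, 145.5 and 63.1 units on AER replicates 1 to 3 and 109.9, 305.6, 66.2 and 308.4 units on ectoderm replicates 1 to 4. Ectoderm replicates 2 and 4 stood above all other arrays, while ectoderm replicates 1 and 3 lay beside AER replicate 2. The AER mean was -2.52 ± 0.51 (log2 level, SD, n = 3), and the ectoderm mean was -1.14 ± 0.92 (SD, n = 4). The difference was -1.38, and it was -1.12 with ectoderm replicates 2 and 4 averaged. Those 2 arrays share a number in their file names, and whether they hold 2 pools or 1 RNA hybridised 2 times is not known. They correlated across genes at 0.995, and every other pair of arrays at 0.990 or less. With them averaged, 2267 genes in all were past the threshold, against 3266 in the main fit. If they hold 1 RNA, a peak shared by these 2 arrays, here or for genes below, is 1 reading. The Sox10 means thus stood in the order opposite to those of Dct, with overlap. The Sox10 probe lies on chromosome 15 from 78985518 to 78985577 (mm9).

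Among the receptors, Ednrb followed the ectoderm arrays on which Sox10 was high. Its brighter probe (chromosome 14 from 104214484 to 104214543) gave 50.9, 47.0 and 36.8 units in AER and 64.2, 104.6, 16.1 and 86.9 units in ectoderm. The other probe gave 42.3, 71.5, 9.25 and 60.4 units in ectoderm and 11.9 to 26.2 units in AER, where it was above background on 0 of 3 arrays. On both probes ectoderm replicates 2 and 4 were the highest arrays and ectoderm replicate 3 was not well above background. The log2 difference of the brighter probe was -0.56, the other probe was at least 2.20-fold lower in AER, and the groups overlapped on both. Kit, the receptor tyrosine kinase of melanoblasts, was level across the arrays, at 436.0, 621.2 and 473.8 units in AER and 512.8, 579.5, 398.5 and 453.8 units in ectoderm. Scaled, these were 0.26 ± 0.11 (SD, n = 3) and 0.43 ± 0.14 (SD, n = 4) on the log2 scale, with overlap.

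Kitl, the ligand of Kit, was detected on all 7 arrays, with 127.8, 189.1 and 186.6 units in AER and 199.0, 230.0, 100.9 and 164.4 units in ectoderm. Its log2 levels of -1.35 ± 0.26 (SD, n = 3) and -1.10 ± 0.17 (SD, n = 4) overlapped, and their difference of -0.25 was -0.02 after quantile normalization. Its profile was most like those of Reep5, Fam122b, Fut4, Rbm12b1 and Tmem65, with root mean square differences of 0.037 to 0.072 (log2). Their AER minus ectoderm differences lay between -0.31 and -0.27. A profile this flat has many neighbours: 10081 of 13469 genes lay within 0.5.

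Across the members that passed the filter, the differences ran from -1.38 for Sox10 to 4.71 for Dct, with a median of -0.22 against -0.08 over all 20826 genes tested. By limma's moderated test with Benjamini-Hochberg adjustment at 0.05, 1 of these 8 members (Dct) was past the threshold, where 15.7% of all genes were, 7.03% higher and 8.65% lower in AER. Because the members were picked with this contrast known, that count supports nothing. Of the 14 member probes, 12 had overlapping groups, and the other 2 were those of Dct; over all genes tested, groups did not overlap for 30.4%. The scaling mattered for direction. The mean of 12 pan-epithelial markers stood 1.62 (log2) higher in AER, and subtracting it from each array lowers every difference by as much. Under it Dct remained at 3.09, while Pmel, Mitf and Tyr turned from 0.48, 0.46 and 0.87 to -1.14, -1.16 and -0.75.

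**Figure D2:**
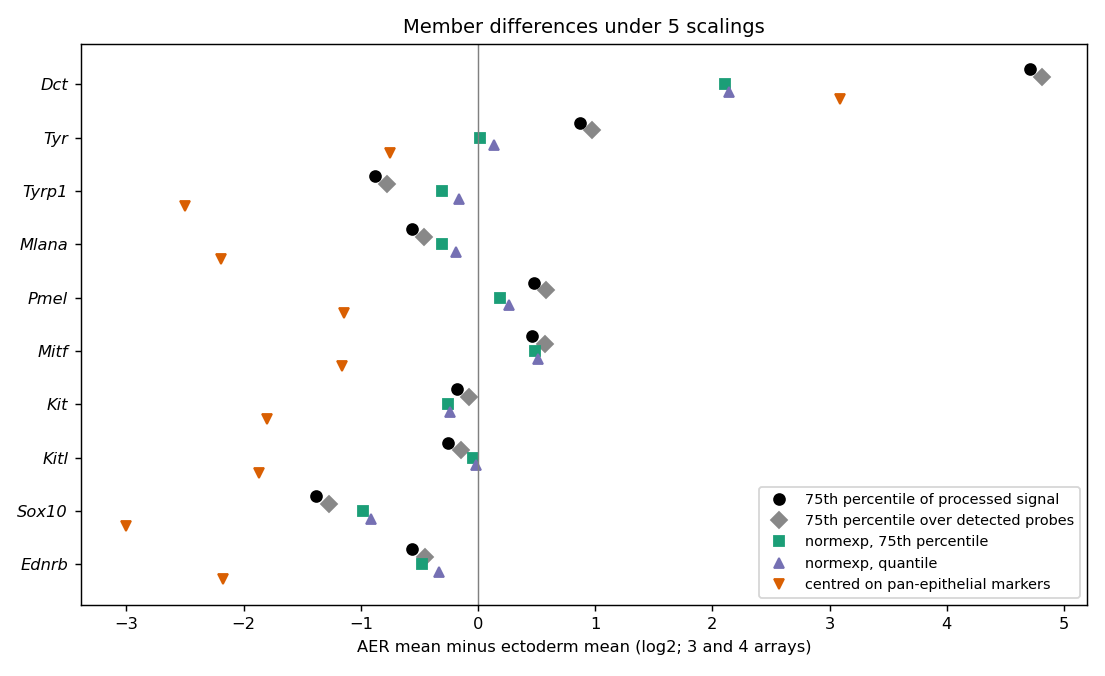
AER mean minus ectoderm mean (log2; 3 and 4 arrays) of each member's brightest probe under 5 scalings, with 0 as a vertical line. Dct lies between 2.11 and 4.81 under these scalings, Sox10 between -3 and -0.92, and the centring on pan-epithelial markers puts each member 1.62 below its main value.

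Beyond the members, genes that build, move or fill the melanosome went both ways. Of 22 such genes, 14 passed the filter, 2 rose and 3 fell in AER and 9 were not past the threshold, with a median difference of -0.08, the same to 2 decimals as over all genes. Centred on pan-epithelial markers, the counts were 2 and 12. In the main fit 15.7% of all genes tested were past the threshold, 7.03% higher and 8.65% lower in AER. That share stands beside the count of this list and of each list below. Gpnmb, a melanosome glycoprotein also made by macrophages, gave 36.4, 103.0 and 65.6 units in AER and was above background on 0 of 4 ectoderm arrays. In AER it exceeded the ectoderm by at least 2.49-fold. The log2 difference was 3.47 (limma, adjusted p = 2.86e-05), or 1.09 under normexp. Gpnmb passed the filter through the AER arrays alone. Its p-value thus rests on ectoderm values too dim to be called and does not test the bound. Rab38, a small GTPase that carries pigment enzymes to the melanosome, rose 4.60-fold in AER (95% CI 3.12 to 6.78; adjusted p = 0.00051), with 1667 to 2429 units in AER and 181.3 to 603.5 units in ectoderm. Rab32, its close relative, fell 3.30-fold in AER (95% CI 2.00 to 5.44; adjusted p = 0.00703), and Rab27a, which ties melanosomes to the cell's motor machinery, was 3.92-fold lower (95% CI 2.34 to 6.57; adjusted p = 0.00409). The transporters Oca2 and Slc45a2, the melanosome receptor Gpr143 and the melanocortin receptor Mc1r were above background on 0 of 3 AER arrays, and of the ectoderm arrays on 1 for Oca2 and 0 for the others. Slc24a5, a melanosome ion exchanger, was detected on all 7 arrays with a difference of 0.50 (adjusted p = 0.133).

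Of the ligands and receptors that guide melanoblasts, those past the threshold were lower in AER, though some were too dim to be called there. Of 20 genes in this list, 19 were on the array, 14 passed the filter, 0 rose, 6 fell and 8 were not past the threshold, with a median of -0.52; at an unadjusted p under 0.05 the counts were 0 and 8. Cxcr4, a receptor of migrating cells, gave 110.1 to 255.2 units in ectoderm and was not well above background on any AER array. It fell at least 14.3-fold in AER. The log2 difference was -4.74 (limma, adjusted p = 3.81e-05), or -2.06 under normexp. Its ligand Cxcl12 was 23.7-fold lower (95% CI 11.1 to 50.6; adjusted p = 0.000366). Ednra, the endothelin receptor of mesenchymal crest, was 3.82-fold lower (95% CI 2.61 to 5.60; adjusted p = 0.000947). Hgf, the ligand of Met, was at least 4.21-fold lower, with a log2 difference of -2.64 (limma, adjusted p = 0.00182), or -0.88 under normexp. Edn3, the ligand of Ednrb in melanoblasts, was named after its values were seen. It gave 38.2, 61.5, 15.2 and 41.1 units on ectoderm replicates 1 to 4, of which replicate 3 was not above background, and 5.07, 5.53 and 10.9 units on the AER arrays, none of which was. It was at least 2.59-fold lower in AER, with a log2 difference of -2.62 (limma, adjusted p = 0.00237), or -0.70 under normexp. Cxcr4, Hgf and Edn3 passed the filter through the ectoderm arrays alone. Their p-values thus rest on AER values too dim to be called and do not test the bounds. The 6 genes counted as lower include these, and the others of the 6 were above background on all 7 arrays. Edn3 and Ednrb were both highest on ectoderm replicates 2 and 4. Of 11 limb mesenchyme markers tested, 9 fell and 0 rose in AER, and 7 of 7 muscle progenitor markers fell, Met and Pax3 among them. The summed signal of 8 muscle progenitor markers was 0.46 to 1.09 times an array's 75th percentile in AER and 16.4 to 28.1 times in ectoderm. Their part in the guidance genes was not tested.

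Genes known for specifying the neural crest went both ways, with more of them higher in AER on the 75th percentile scale. Of 20 genes, 18 passed the filter, 11 rose, 3 fell and 4 were not past the threshold, with a median of 1.45. The 3 that fell include Sox8, above background on 0 of 3 AER and 4 of 4 ectoderm arrays. It passed the filter through the ectoderm arrays alone, and its call rests on AER values too dim to be called. The 11 became 7 without AER replicate 2 or 3, without ectoderm replicate 1, 2 or 4, with the slide row as a block or with ectoderm replicates 2 and 4 averaged. Centred on pan-epithelial markers, 4 rose and 8 fell, with a median of -0.17, so the direction of this list depends on the scaling. Several of them are known epithelial or limb genes as well. Tfap2c, an AP-2 factor of crest and surface ectoderm, rose 8.72-fold in AER (95% CI 6.18 to 12.3; adjusted p = 4.71e-05). Pax3, shared by melanoblasts and muscle precursors, was 15.4-fold lower (95% CI 10.6 to 22.5; adjusted p = 2.86e-05; log2 difference -3.08 under normexp), with 41.0 to 78.8 units in AER and 525.6 to 1341 units in ectoderm. Sox9, a factor of crest and of cartilage, was 6.30-fold lower (95% CI 4.40 to 9.01; adjusted p = 0.00012). Foxd3, the early crest factor, was above background on 0 of 3 AER and 2 of 4 ectoderm arrays.

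Markers of other cells that carry Sox10 or Kit were set beside the members. Of 20 Schwann precursor and glial genes, 13 passed the filter, 2 rose, 5 fell and 6 were not past the threshold (median -0.57; 0 and 11 centred on pan-epithelial markers). Gfra3, a receptor of Schwann cell precursors, fell 10.5-fold in AER (95% CI 7.37 to 14.9; adjusted p = 3.73e-05), with 818.2 to 2302 units in ectoderm and the highest values on ectoderm replicates 2 and 4. The myelin gene Pmp22, also made by mesenchyme, was 3.62-fold lower (95% CI 2.47 to 5.29; adjusted p = 0.00116), and 1.22 lower on the log2 scale as the mean of its probes. Cnp was 2.15-fold lower and the growth cone gene Gap43 2.95-fold lower (adjusted p = 0.00352 and 0.00382). The 2 that rose were Itga4, 3.06-fold higher in AER, and the myelin gene Mbp, 2.24-fold higher (limma, adjusted p = 0.0048 and 0.0092). Of other glial markers, Cdh19, S100b and Sox2 were above background on 0 of 7 arrays, Erbb3 on 1 and Fabp7 on 2. Their part in the Sox10 values was not tested. Of 16 neuron genes, 10 passed, 2 rose, 5 fell and 3 were not past the threshold. The counts were 2 and 3 under normexp or quantile normalization, and 0 and 8 centred on pan-epithelial markers. The 5 that fell in the main fit include a gene above background on 0 of 3 AER and 3 of 4 ectoderm arrays. That gene passed the filter through the ectoderm arrays alone. Tubb3, a tubulin of neurons, rose 3.49-fold in AER (adjusted p = 0.000517; log2 difference 0.18 centred on pan-epithelial markers, adjusted p = 0.508), and the neurotrophin receptor Ntrk2 3.91-fold lower (adjusted p = 0.000527). The neurofilament genes Nefl and Nefm were 3.16-fold and 3.70-fold lower (adjusted p = 0.00705 and 0.0103), each above background on 1 of 3 AER arrays, and under normexp the differences were -0.63 for both, with adjusted p = 0.0538 for Nefm.

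Of 16 mast cell and blood progenitor genes, 11 passed the filter, 1 rose, 1 fell and 9 were not past the threshold. Over all genes tested 15.7% were past it, a share near that of this list. Myb, a factor of blood progenitors, fell 2.07-fold in AER (adjusted p = 0.00279). Runx1, known from blood stem cells, was 2.28-fold higher (95% CI 1.43 to 3.63; adjusted p = 0.0275). Runx1 was no longer past the threshold when AER replicate 1 or 3 was left out (adjusted p = 0.0794 and 0.0811), when ectoderm replicate 1 or 3 was (adjusted p = 0.0629 and 0.0593), or with the slide row as a block (adjusted p = 0.0693), and its difference was -0.43 under centring on pan-epithelial markers. The mast cell genes Ms4a2, Fcer1a, Tpsab1, Cma1 and Mcpt4 were above background on 0 of 7 arrays. The mast cell tryptase gene Tpsb2 and the histamine enzyme gene Hdc were above background on all 7. Tpsb2 gave 309.6 to 413.4 units in AER and 129.8 to 245.2 units in ectoderm (log2 difference 0.65, limma, adjusted p = 0.092). Its scaled groups narrowly did not overlap, with -0.45 on the lowest AER array and -0.47 on the highest ectoderm array. Of all genes tested, 12.6% had every AER array above every ectoderm array. Hdc gave 57.0 to 185.5 and 81.9 to 203.9 units (log2 difference -0.74, adjusted p = 0.200), with overlap. Cpa3, a mast cell protease, was above background on 2 of 3 AER and 3 of 4 ectoderm arrays (difference -1.63, adjusted p = 0.188).

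**Figure D3:**
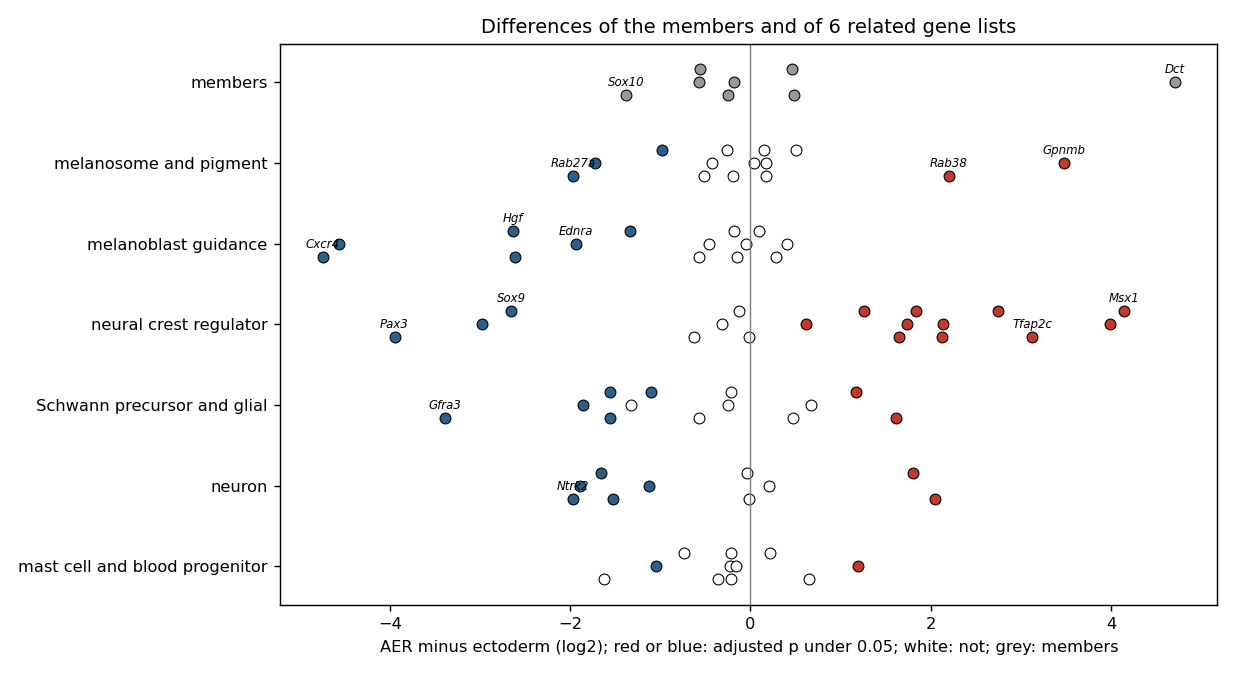
AER minus ectoderm difference (log2) of the members that passed the filter and of the tested genes of 6 related lists, 1 point per gene. Red and blue points were past the threshold of 0.05 (adjusted p, limma) toward AER and ectoderm, white points were not, and members are grey whatever their call, because they were chosen on this contrast. Dct lies at 4.71, the guidance genes past the threshold all lie below 0, and neural crest regulators lie on both sides.

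For all genes, 3266 of 20826 were past the threshold, 1464 higher and 1802 lower in AER. The higher share of 44.8% became 57.4% with the 75th percentile of only those probes that all 7 arrays detected, and 1.11% under centring on pan-epithelial markers. The 75th percentile of the signal was 340.6 to 563 units on the AER arrays and 256.7 to 443.9 units on the ectoderm arrays, and 48.7% to 55.2% of spots were well above background. Of 15 AER markers tested, 14 rose and 0 fell in AER, and 12 of 12 pan-epithelial markers were above background on every array. Both tissues also held limb mesenchyme markers, with 11 of 11 above background on each ectoderm array and 9 to 11 on the AER arrays. Their summed signal was 418 to 652 times the 75th percentile in ectoderm and 202 to 233 times in AER. Endothelial, macrophage and erythroid markers were present in both tissues, with 0 of 8, 0 of 7 and 0 of 8 past the threshold by limma, and 0, 0 and 2 at an unadjusted p under 0.05. The typical SD between spots of a probe printed 10 times was 0.226 and 0.219 (log2) on AER replicates 1 and 2 and 0.079 to 0.092 on the other arrays. The number of arrays, 3 and 4, limits the precision of every value above.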

How the data were processed

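Pooled RNA was hybridised to 7 Agilent arrays of 1 colour on 1 slide. Per the file headers, the authors' processed signal is an intensity that Feature Extraction 10.7.3.1 background-subtracted and detrended, with no scaling between arrays. The deposited files also hold other columns with a flag of 0 or 1 for signal well above background. The authors' deposited matrix is on the log2 scale, and normexp with an offset of 50 and quantile normalization gave its values to within 0.000108. The submitters' processing notes name limma, without a version.

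Control and outlier spots were left out, spots of a probe were averaged as log2, and each array's 75th percentile over probes was subtracted. Probes well above background on at least 3 arrays were tested, with 1 probe per gene, the brightest. A probe above background in 1 tissue only passed this filter through that tissue, and its call rests on values too dim to be called in the other. Such genes are within the counts given for lists, markers and all genes. Probe names came from RefSeq accessions (26300 of 55681), symbols (2044) or older symbols (355), otherwise from the files. limma 3.58.1 in R 4.3.3 (lmFit, eBayes, two-sided) compared the groups, with Benjamini-Hochberg adjustment over 20826 genes. On simulated data with 20818 genes for this comparison, 95% of genes changed by 3 (log2) and 40% of those changed by 1 were recovered. A bound ("at least") sets arrays of the dim group to the dimmest signal called above background there. Levels of different probes were not compared.

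The members and lists were chosen with earlier results of these data known. Named are all members, of each list up to 4 genes past the threshold with the smallest p, and the 5 profiles most like Dct and Kitl. Edn3, Fgf8, Slc24a5, Sox8, Itga4, Mbp, Tpsb2, Hdc, Cpa3 and the genes below background were named after their values were seen. Some list genes are not reported here. Which exon or untranslated region a probe lies in was not looked up. Alternatives covered background, scaling, filter, probe choice, blocks and left-out arrays.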

Additional observations from a re-analysis of the deposited data

Results flagged for a closer look

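In 46 ectoderm groups of 4 arrays that were checked for a value far from the others, 3 stood out by Dixon's 95% criterion, and chance gives about 1 in 20. Each of them was ectoderm replicate 3. The brighter Dct probe stood there at -3.35 (log2 level), with the other ectoderm arrays between -6.12 and -5.91. Those 3 values are surrogates that the software set for dim spots, so their narrow range is not a measured spread and any detected array would stand apart from them. Msx1 stood at 3.35 against 1.71 to 1.83, and Tulp2 at -0.0807 against -1.58 to -1.34. Msx1 and Tulp2 were among the profiles most like Dct, so these values are not independent of each other.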

How the results depend on the processing

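Dct kept its direction under all alternatives tried, with a difference of 2.11 to 5.37. A further setting was chosen after seeing the data: AER replicate 3 kept alone against the 4 ectoderm arrays, its spread assumed like theirs. With it, 0 members were past the threshold by limma (2 at an unadjusted p under 0.05), and 1533 genes in all were. Melanosome genes past the threshold then numbered 3, neural crest regulators 8, glial genes 4, neuron genes 3, and mast cell and blood progenitor genes 1. Of the named genes, Edn3, Gap43, Itga4, Mbp, Myb, Nefm, Rab32 and Runx1 were then no longer past it. Centring on pan-epithelial markers put 19900 of all genes, 14 melanosome, 14 guidance, 11 glial, 10 mast cell and blood progenitor genes and 8 members past the threshold, by its construction mostly lower. Members past the threshold numbered 2 under normexp, under quantile normalization, with the authors' values, with the slide row as a block and with the replicate block. The second was Mitf with quantile normalization and the authors' values and Sox10 in the other settings. The members were picked with this contrast known, so their counts under any setting are a description and support nothing. With no filter on dim probes, 1 mast cell and blood progenitor gene was past it.

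Leaving out 1 array at a time gave 2199 to 3275 genes in all, 4 to 6 melanosome, 10 to 13 neural crest, 6 to 7 guidance, 7 to 8 glial, 6 to 7 neuron, 1 to 2 mast cell and blood progenitor genes and 1 to 1 members. Whether the number in the titles pairs the arrays is not settled. Deviations of same-numbered arrays correlated across genes at -0.03, 0.19 and 0.13, and with the replicate block 2444 genes differed. The same-numbered array gave the largest correlation for AER replicates 2 and 3, but for AER replicate 1 it was ectoderm replicate 3 (0.18). Deviations from means of 3 and 4 arrays depend on each other, so these values cannot decide it. The number in the file names gave correlations from -0.165 to 0.132, and 3293 genes as a block. Signals near background limit Tyr, Tyrp1, the ectoderm values of Dct and the lower values of Mlana, Pmel and Ednrb. The dimmest signal called above background on an array was 14.5 to 25.6 units.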
